A study of Homo sapiens with 56 samples.

Results

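The 30 genes described here make, control or move cholesterol and fatty acids. They were listed by name and matched by symbol to the gene identifiers of the deposited counts, and all 30 were found among the 16485 genes of 1 table and the 16454 genes of the other. By role, 18 are enzymes of sterol synthesis, 5 belong to its control and to cholesterol transport, and 7 are enzymes of fatty acid synthesis and desaturation. RNA was sequenced from 7 established human colorectal cancer cell lines, each kept with the vehicle water as control or treated with 10 mM 2-methylisocitrate (2-MiCit), with 4 libraries in each of the 14 groups and 56 in all. HCT116, DLD1, LoVo and SW948 stand in the first table and HT29, SKCO1 and SW1417 in the last, and every group is an unmodified line, so that each genotype is represented by a single line grown in culture. The series title places 2-MiCit among metabolites of the tumour microbiota, and the comparison asks what it did to each line's transcripts. How long the cells were treated is not stated in the labels, and the growth protocol names only the lines of the first table.

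Cells make cholesterol from acetyl-CoA through mevalonate, isoprenoid diphosphates, squalene and lanosterol, and they make fatty acids from the same acetyl-CoA through malonyl-CoA. Both routes answer to SREBP transcription factors, which are made as membrane proteins of the endoplasmic reticulum. SCAP escorts them to the Golgi for cleavage when sterols are scarce, INSIG1 holds SCAP back when sterols are plentiful, and INSIG1 is itself an SREBP target. SREBP-2, the product of SREBF2, mainly drives the sterol genes, and SREBP-1, the product of SREBF1, mainly drives the fatty acid genes. 2-Methylisocitrate is an intermediate of the methylcitrate cycle, by which bacteria break down propionate.

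SREBPs bind sterol regulatory elements together with NF-Y, a factor that binds CCAAT boxes, and the start regions of 4 genes on which the results turn are shown to let a reader see these letters. Each is the 250 bases before the gene's start in RefSeq (GRCh38.p14), read 5′ to 3′ on the gene's strand, with matches in capitals. The matches are CCAAT or its reverse complement ATTGG, the E-box CACGTG, and the sterol regulatory element TCACNCCAC, and none of them overlap. HMGCS1 lies at chr5:43313413-43313662 on the minus strand, MSMO1 at chr4:165327419-165327668 on the plus strand, INSIG1 at chr7:155297628-155297877 on the plus strand, and SREBF2 at chr22:41832855-41833104 on the plus strand.
HMGCS1: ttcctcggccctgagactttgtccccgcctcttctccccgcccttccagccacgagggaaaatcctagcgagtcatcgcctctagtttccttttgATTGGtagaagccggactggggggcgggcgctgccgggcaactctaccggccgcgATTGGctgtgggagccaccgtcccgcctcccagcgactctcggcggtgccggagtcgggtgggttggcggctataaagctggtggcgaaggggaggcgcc
MSMO1: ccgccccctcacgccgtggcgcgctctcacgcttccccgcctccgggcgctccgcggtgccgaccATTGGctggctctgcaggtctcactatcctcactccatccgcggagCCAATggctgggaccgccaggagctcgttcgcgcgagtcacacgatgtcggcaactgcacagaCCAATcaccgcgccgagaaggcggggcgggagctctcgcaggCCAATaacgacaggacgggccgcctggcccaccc
INSIG1: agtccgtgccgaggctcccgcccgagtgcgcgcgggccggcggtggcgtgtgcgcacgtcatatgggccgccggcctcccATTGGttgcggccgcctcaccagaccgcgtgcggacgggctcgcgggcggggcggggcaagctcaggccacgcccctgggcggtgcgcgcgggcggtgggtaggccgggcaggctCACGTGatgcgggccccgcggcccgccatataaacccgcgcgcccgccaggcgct
SREBF2: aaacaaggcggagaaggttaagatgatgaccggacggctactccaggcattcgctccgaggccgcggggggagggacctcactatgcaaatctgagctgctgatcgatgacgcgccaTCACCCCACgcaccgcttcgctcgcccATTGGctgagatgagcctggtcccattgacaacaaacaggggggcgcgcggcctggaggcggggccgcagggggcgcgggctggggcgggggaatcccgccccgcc
HMGCS1 holds 2 CCAAT boxes, which begin 155 and 100 bases before the start, and MSMO1 holds 4, at 185, 139, 76 and 34 bases. INSIG1 holds 1 CCAAT box at 170 bases and an E-box at 55 bases, and SREBF2 holds the sterol element at 133 bases and a CCAAT box at 106 bases. RefSeq start regions matched 26 of the 30 genes, all but ACAT2, FDFT1, SQLE and FASN. CCAAT was found on either strand in 17 of those 26, with 12 of 15 sterol enzymes, 3 of 5 control and transport genes and 2 of 6 fatty acid enzymes, where 33.0% of all 27305 start regions of the same length held it. TCACNCCAC was found in 1 of the 26 (0.875% of all) and CACGTG in 3 of the 26 (6.49% of all). A match is a run of letters and not a measured binding site. Only 1 pattern of the sterol element was searched, in 250 bases. A region without a match may therefore still hold such an element in other letters or at another position.

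Libraries held 13837856 to 19447718 counts in the first table and 29072881 to 45432695 in the last. The biological coefficient of variation between libraries ran from 0.110 in LoVo to 0.183 in DLD1 in the first table and from 0.0692 in SW1417 to 0.0936 in HT29 in the last. The labels number the libraries 1 to 4 within a group without saying whether each is its own culture. The p-values therefore cover the variation among these particular libraries, and that variation may be technical. Of 7 markers of colon epithelium, all 7 stood at 1 CPM (counts scaled to a common library size) or more in each line except HCT116, where 5 did. KRT20 was listed at 0 and VIL1 was at 0.188 CPM in HCT116 controls. In bulk RNA, fewer cells of a kind and less RNA per cell cannot be told apart.

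The members that passed the test were mostly lower in HCT116 and all higher in HT29 and SKCO1. With 2-MiCit, 16 of the 30 genes were lower and 3 higher in HCT116, among them 12 of the 18 sterol enzymes lower and 1 higher. In HT29 11 were higher and none lower, 9 of them sterol enzymes, and in SKCO1 9 were higher and none lower, 6 of them sterol enzymes. SW1417 had 5 higher, LoVo had 2 lower, and no member passed the test in DLD1 or SW948. A gene is called here when its adjusted p is below 0.05 in edgeR's quasi-likelihood test of 4 against 4 libraries, with Benjamini-Hochberg adjustment over all genes tested in that line. Over both directions 24 members were called in at least 1 line and 6 in none (PMVK, FDFT1, SREBF1, STARD4, ACACA and ELOVL6), where 52.4% of the 11319 genes tested in every line were called in at least 1.

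**Figure D1:**
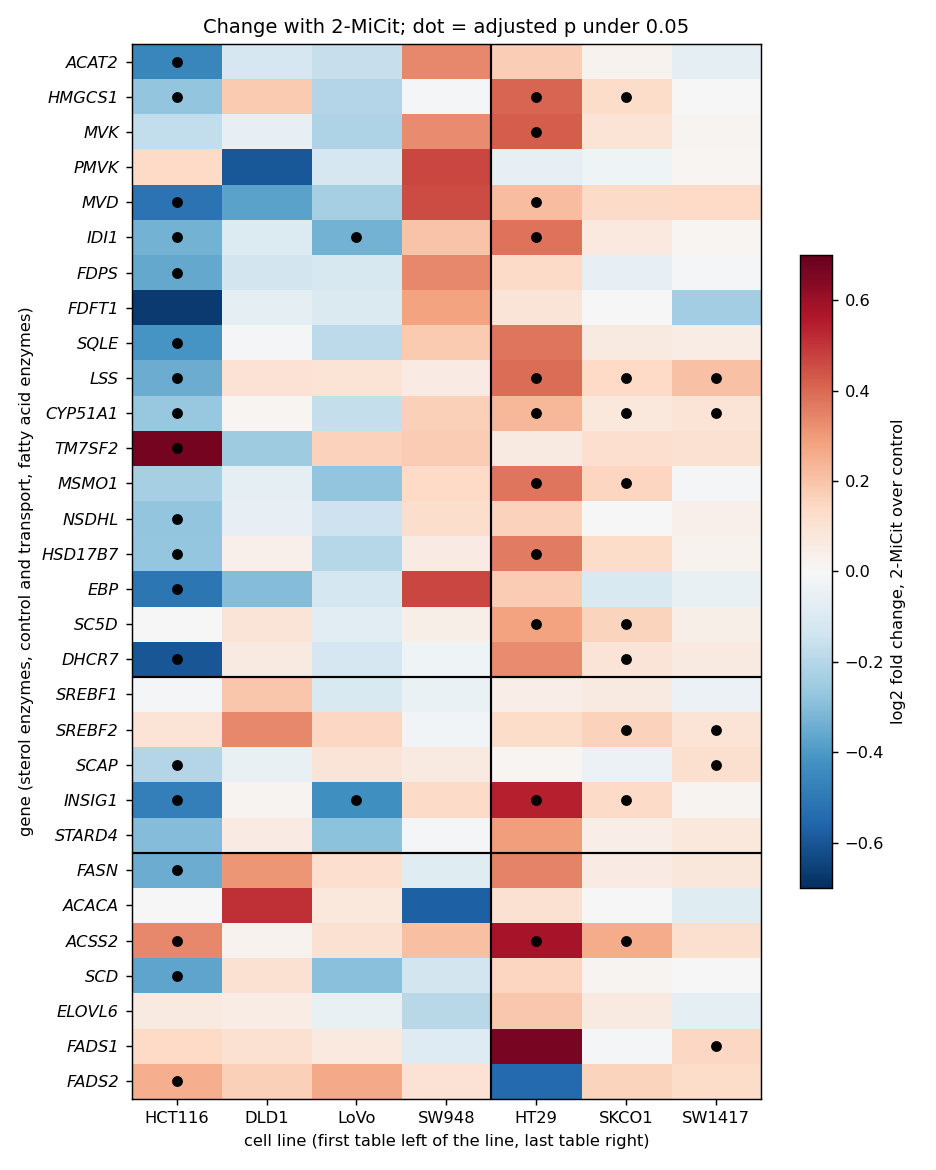
Log2 fold change of each gene (rows) with 2-MiCit over control in each line (columns), red for higher and blue for lower, with a dot where the adjusted p is below 0.05. Dots lie on 16 blue and 3 red cells in the HCT116 column, on 11 red cells for HT29 and on 9 red cells for SKCO1, and DLD1 and SW948 hold none.

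These counts stand beside the share of all genes called in each line. In HCT116 18% of 13834 genes were lower and 19% higher, so the members lean to lower where all genes split about evenly. In HT29 4.65% of 13887 genes were higher and 3.02% lower, in SKCO1 8.1% of 14651 genes were higher and 10.8% lower, and in SW1417 2.94% of 14089 genes were higher and 4.05% lower. In LoVo 0.702% of 13677 genes were lower and 1.59% higher. In DLD1 0% of 13551 genes were lower and 0.148% higher, and in SW948 0% of 13334 genes were called in either direction.

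Some marker sums moved in the same lines as the members. In HCT116 the 7 epithelial markers summed to 3679 to 4037 CPM in controls and 5343 to 6028 CPM with 2-MiCit, beside 16 members lower. That rise came mostly from KRT8 (mean 2376.9 to 3529.9 CPM) and KRT18 (1116.5 to 1702.4 CPM), and CDH1 also rose (35.8 to 52.04 CPM). EPCAM (350.4 to 326.1 CPM) and CDX2 (16.5 to 14.7 CPM) had lower means with 2-MiCit, and VIL1 and KRT20 stayed below 1 CPM. The sum is therefore not a rise of the list as a whole. Of 6 leukocyte markers 2 could be read, and their sum ran from 1686 to 1751 CPM in HT29 controls and from 1779.6 to 1866 CPM with 2-MiCit, and from 50.9 to 56.6 CPM and 61.1 to 66.3 CPM in SKCO1. Nearly all of that was LYZ, lysozyme, which secretory cells of the gut also make, while CD14 was at 1.59 CPM in HT29 and 0.459 CPM in SKCO1 controls. Fibroblast markers summed to at most 3.12 CPM in HT29 and 22.2 CPM in HCT116, and endothelial markers to at most 2.29 CPM in any group. The part of these shifts in the members' changes was not tested.

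Some of these counts rest on single libraries or on how the counts were scaled. In LoVo the 2 calls fell to 0 without 2-MiCit library 1, 2 or 4 or control library 3, to 1 without control library 2 or 2-MiCit library 3, and rose to 4 without control library 4. Over all genes LoVo had 218 higher and 96 lower in the main fit. In those fits, in the same order, it had 44 and 5, 35 and 4, 57 and 11, and 32 and 4. It then had 50 and 8, 112 and 38, and 291 and 200. In HT29 the 11 calls fell to 7 without control library 1 or 4 and to 5 without control library 3, in SKCO1 the 9 fell to 4 without 2-MiCit library 2, and in SW1417 the 5 fell to 3 without control library 2 or 2-MiCit library 3 or 4 and to 2 without control library 3 or 4 or 2-MiCit library 1 or 2. Over all genes HT29 had 646 higher and 419 lower in the main fit. Without control library 1, 4 or 3 it had 323 and 175, 570 and 453, and 299 and 153. SKCO1 had 1187 and 1589 in the main fit, and 904 and 1269 without 2-MiCit library 2. SW1417 had 414 and 570 in the main fit. In the fits named it ran from 187 and 303 without 2-MiCit library 3 to 460 and 670 without 2-MiCit library 4. With the authors' own factor for each gene and library as an offset, HT29 kept 7 of its 11 calls, SKCO1 kept 1 of its 9 and SW1417 kept none of its 5. Some alternatives also called 1 member lower in SKCO1. These were DESeq2, the replicate block, and the fits without control library 4 or without 2-MiCit library 3. In HCT116 the deviations of same-numbered libraries from their group means all correlated above 0.1. Libraries numbered 2 and 3 reached more than that with another number (0.198 and 0.132). A fit with the number as a replicate block called 21 members there, 18 of them lower, adding MSMO1 (adjusted p = 0.0025) and STARD4 (adjusted p = 0.0012). Over all genes that fit called 3674 higher and 3348 lower, where the fit without the block called 2635 and 2489.

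The first steps, from acetyl-CoA to farnesyl diphosphate, hold 7 of the enzymes. In HCT116 5 of them were lower (ACAT2, HMGCS1, MVD, IDI1 and FDPS), and in HT29 4 were higher (HMGCS1, MVK, MVD and IDI1), with no call the other way in either line. HMGCS1, which makes HMG-CoA from acetyl-CoA and acetoacetyl-CoA, stood at 90.7, 97.0, 82.2 and 96.3 CPM in HCT116 controls and at 75.3, 80.2, 70.3 and 77.1 CPM with 2-MiCit. In HT29 it stood at 79.7, 77.0, 75.8 and 78.3 CPM in controls and at 96.9, 119, 97.8 and 98.3 CPM with 2-MiCit. The groups did not overlap in either line, and HT29 2-MiCit library 2 was the highest. The log2 fold change was -0.27 (SE 0.07, adjusted p = 0.00881) in HCT116 and 0.41 (SE 0.06, adjusted p = 0.00361) in HT29. In SKCO1 HMGCS1 moved from 79.8, 87.7, 83.1 and 79.5 CPM to 90.1, 92.4, 91.6 and 86.3 CPM, a log2 fold change of 0.13 (SE 0.03, adjusted p = 0.016). The SKCO1 groups overlapped, since control library 2 lay above 2-MiCit library 4, and the call was lost when any of 3 libraries was left out (2-MiCit library 2 or control library 1 or 4), with an adjusted p of 0.0565 to 0.0569.

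MVD, which removes a carboxyl group to give isopentenyl diphosphate, fell in HCT116 from 87.9, 77.1, 78.2 and 68.0 CPM to 57.8, 50.4, 58.6 and 50.8 CPM, a log2 fold change of -0.52 (SE 0.09, adjusted p = 0.0011). In HT29 it rose from 43.1, 46.4, 41.5 and 41.2 CPM to 49.9, 54.7, 46.6 and 48.8 CPM, a log2 fold change of 0.22 (SE 0.06, adjusted p = 0.0427). The HT29 groups were separated by a small gap, and the call was lost when any of 6 libraries was left out (2-MiCit 1, 2 or 4 or control 1, 3 or 4), with adjusted p of 0.0689 to 0.131. IDI1, which turns isopentenyl diphosphate into its reactive isomer, was the sterol enzyme called in both HCT116 and LoVo. It fell in HCT116 from 76.4, 70.2, 58.4 and 62.0 CPM to 56.3, 52.3, 51.3 and 51.9 CPM, a log2 fold change of -0.33 (SE 0.08, adjusted p = 0.0108). In LoVo it fell from 98.0, 96.5, 101 and 103 CPM to 76.4, 73.2, 84.6 and 83.5 CPM, a log2 fold change of -0.33 (SE 0.06, adjusted p = 0.0236). In HT29 it rose from 55.8, 58.8, 53.9 and 52.2 CPM to 72.6, 80.2, 68.4 and 66.0 CPM, a log2 fold change of 0.38 (SE 0.06, adjusted p = 0.00446). Groups did not overlap in any of these 3 lines, although the LoVo call was lost without any of 5 libraries (2-MiCit 1, 2 or 4 or control 2 or 3), with adjusted p of 0.0574 to 0.106.

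Other enzymes of these steps changed in 1 line each. ACAT2, the cytosolic thiolase at the head of the pathway, fell in HCT116 from 56.7 ± 2.44 to 41.3 ± 2.55 CPM (mean ± SD, n = 4; adjusted p = 0.000398). FDPS, farnesyl diphosphate synthase, fell in HCT116 from 122 ± 8.50 to 95.3 ± 7.66 CPM (adjusted p = 0.00284). MVK, mevalonate kinase, rose in HT29 from 17.2 ± 1.15 to 23.1 ± 3.62 CPM (adjusted p = 0.0289), a call lost without control library 1, 3 or 4 or 2-MiCit library 4 (adjusted p of 0.0567 to 0.0956). PMVK, the next kinase, was called in no line, with log2 fold changes from -0.59 (SE 0.24) in DLD1 to 0.47 (SE 0.27) in SW948. FDFT1, squalene synthase, had the largest SE of log2 fold change among the sterol enzymes in HCT116, and stood at 10.4, 9.50, 7.52 and 5.69 CPM in controls and 4.34, 9.69, 1.66 and 5.16 CPM with 2-MiCit, and its log2 fold change of -0.67 (SE 0.45) did not pass the test (adjusted p = 0.287).

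From squalene to cholesterol the same split held, with 1 enzyme going the other way in HCT116. In HCT116 SQLE and 6 enzymes after it were lower and TM7SF2 was higher, and in HT29 5 enzymes after SQLE were higher. SQLE, squalene epoxidase, fell in HCT116 from 79.5 ± 4.07 to 59.8 ± 3.10 CPM (adjusted p = 0.00051), and its HT29 level of 138 ± 8.27 CPM in controls and 179 ± 29 CPM with 2-MiCit did not pass the test (adjusted p = 0.0706).

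LSS, which closes the rings to form lanosterol, was called in 4 lines. In HCT116 it fell from 49.7, 46.0, 43.4 and 41.2 CPM to 35.5, 34.5, 33.1 and 38.4 CPM, a log2 fold change of -0.35 (SE 0.07, adjusted p = 0.00478). In HT29 it rose from 36.7, 43.2, 36.9 and 37.6 CPM to 44.9, 61.2, 46.2 and 50.2 CPM, a log2 fold change of 0.39 (SE 0.10, adjusted p = 0.0444). The second library was the highest in both HT29 groups, and the HT29 call was lost without control library 1, 3 or 4 or 2-MiCit library 3 or 4 (adjusted p of 0.0621 to 0.125). In SKCO1 LSS rose from 87.9, 85.0, 85.3 and 87.0 CPM to 93.2, 92.1, 97.0 and 98.4 CPM, a log2 fold change of 0.14 (SE 0.03, adjusted p = 0.00252). In SW1417 it rose from 46.1, 42.6, 44.5 and 45.2 CPM to 50.8, 49.6, 50.2 and 55.0 CPM, a log2 fold change of 0.20 (SE 0.04, adjusted p = 0.00482). Neither of these pairs of groups overlapped, and both changes were smaller than those in HCT116 and HT29.

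CYP51A1, which takes a methyl group off lanosterol, was called in the same 4 lines. In HCT116 it fell from 131, 135, 121 and 138 CPM to 106, 113, 109 and 109 CPM, a log2 fold change of -0.26 (SE 0.05, adjusted p = 0.00312). In HT29 it rose from 119.9, 125, 115 and 108 CPM to 135, 144, 136 and 136 CPM, a log2 fold change of 0.23 (SE 0.05, adjusted p = 0.0135), a call lost without control library 3 (adjusted p = 0.057). In SKCO1 it moved from 96.1, 97.8, 93.6 and 93.6 CPM to 100.2, 102, 100.3 and 98.9 CPM (log2 fold change 0.07, SE 0.02, adjusted p = 0.0494), and in SW1417 from 108, 104, 100.5 and 101 CPM to 109.9, 109, 110.5 and 111 CPM (log2 fold change 0.09, SE 0.03, adjusted p = 0.0492). These last 2 changes were small and close to the threshold, and each was lost in 7 of the 8 fits that left out a library, every one but control library 2 in SKCO1 (adjusted p of 0.0658 to 0.127) and every one but control library 1 in SW1417 (adjusted p of 0.0761 to 0.146).

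**Figure D2:**
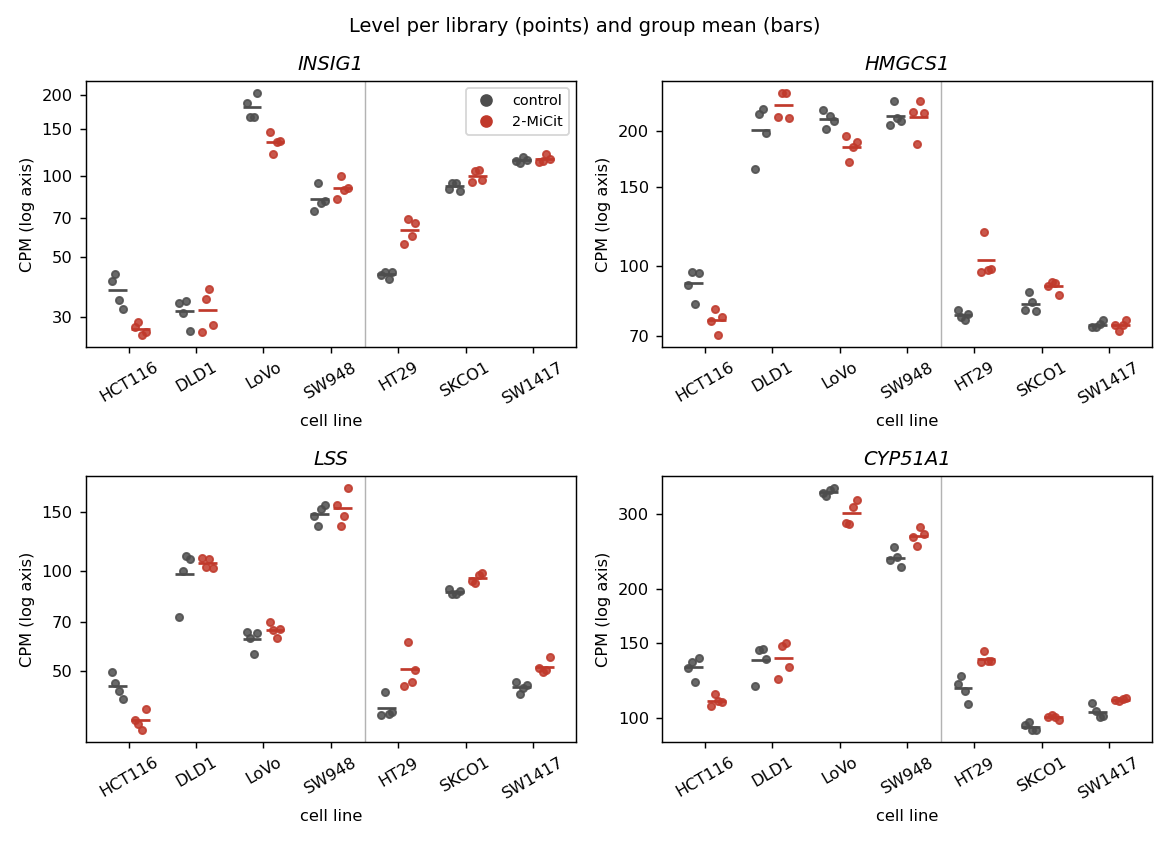
Level in CPM (log axis) of INSIG1, HMGCS1, LSS and CYP51A1 in each library (points) with the group mean (bar), grey for control and red for 2-MiCit, with the first table left of the line and the last table right of it. The red points lie below the grey ones in HCT116 and above them in HT29 for all 4 genes.

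The enzymes that strip the C4 methyl groups of the sterol changed in part. MSMO1, the first of them, rose in HT29 from 21.8, 21.3, 22.3 and 22.0 CPM to 27.7, 30.5, 26.0 and 29.1 CPM, a log2 fold change of 0.37 (SE 0.06, adjusted p = 0.00293), with the groups well apart. It rose in SKCO1 from 46.2 ± 2.22 to 51.3 ± 1.84 CPM (adjusted p = 0.0132), a call lost without 2-MiCit library 2 (adjusted p = 0.0502). NSDHL fell in HCT116 from 29.1 ± 0.929 to 24.0 ± 1.36 CPM (adjusted p = 0.00785). HSD17B7 fell in HCT116 from 12.5, 13.1, 10.9 and 12.1 CPM to 9.83, 10.1, 10.6 and 9.70 CPM (log2 fold change -0.27, SE 0.08, adjusted p = 0.0257). In HT29 it rose from 7.41, 8.42, 7.14 and 7.34 CPM to 9.74, 10.8, 10.1 and 8.39 CPM (log2 fold change 0.36, SE 0.09, adjusted p = 0.0365). The HT29 groups of HSD17B7 overlapped by 1 library. Its HCT116 call was lost without control library 1 or 2 or 2-MiCit library 1, 2 or 4 (adjusted p of 0.0565 to 0.0829) and its HT29 call without control library 1, 3 or 4 or 2-MiCit library 1, 2 or 3 (adjusted p of 0.071 to 0.112).

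Among the last enzymes, DHCR7, the reductase that completes cholesterol, had the smallest p of all members called lower in HCT116. It fell there from 80.9, 86.4, 80.6 and 76.2 CPM to 52.4, 59.5, 52.2 and 50.2 CPM, a log2 fold change of -0.60 (SE 0.07, adjusted p = 0.000121), with every 2-MiCit library far below every control. In SKCO1 it moved the other way, from 116, 118, 119 and 115 CPM to 118, 127, 132 and 123 CPM (log2 fold change 0.09, SE 0.03, adjusted p = 0.0464), with overlapping groups. That SKCO1 call was lost in 7 of the 8 fits that left out a library, every one but 2-MiCit library 1 (adjusted p of 0.0554 to 0.122). EBP, a sterol isomerase, fell in HCT116 from 63.6 ± 3.81 to 44.8 ± 3.53 CPM (adjusted p = 0.000455). SC5D, a sterol desaturase, stood in HCT116 at 41.8 ± 2.48 and 41.8 ± 2.64 CPM, and rose in HT29 from 71.6 ± 4.90 to 86.9 ± 5.55 CPM (adjusted p = 0.0158, lost without control library 3 at 0.0672) and in SKCO1 from 54.1 ± 2.01 to 60.3 ± 1.86 CPM (adjusted p = 0.00533). TM7SF2, a sterol reductase, was singled out after its values were seen, since it was the only sterol enzyme called higher in HCT116. It stood there at 8.57, 7.15, 8.10 and 7.04 CPM in controls and at 13.1, 12.9, 12.0 and 11.1 CPM with 2-MiCit, a log2 fold change of 0.67 (SE 0.10, adjusted p = 0.000543), and the groups did not overlap.

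**Figure D3:**
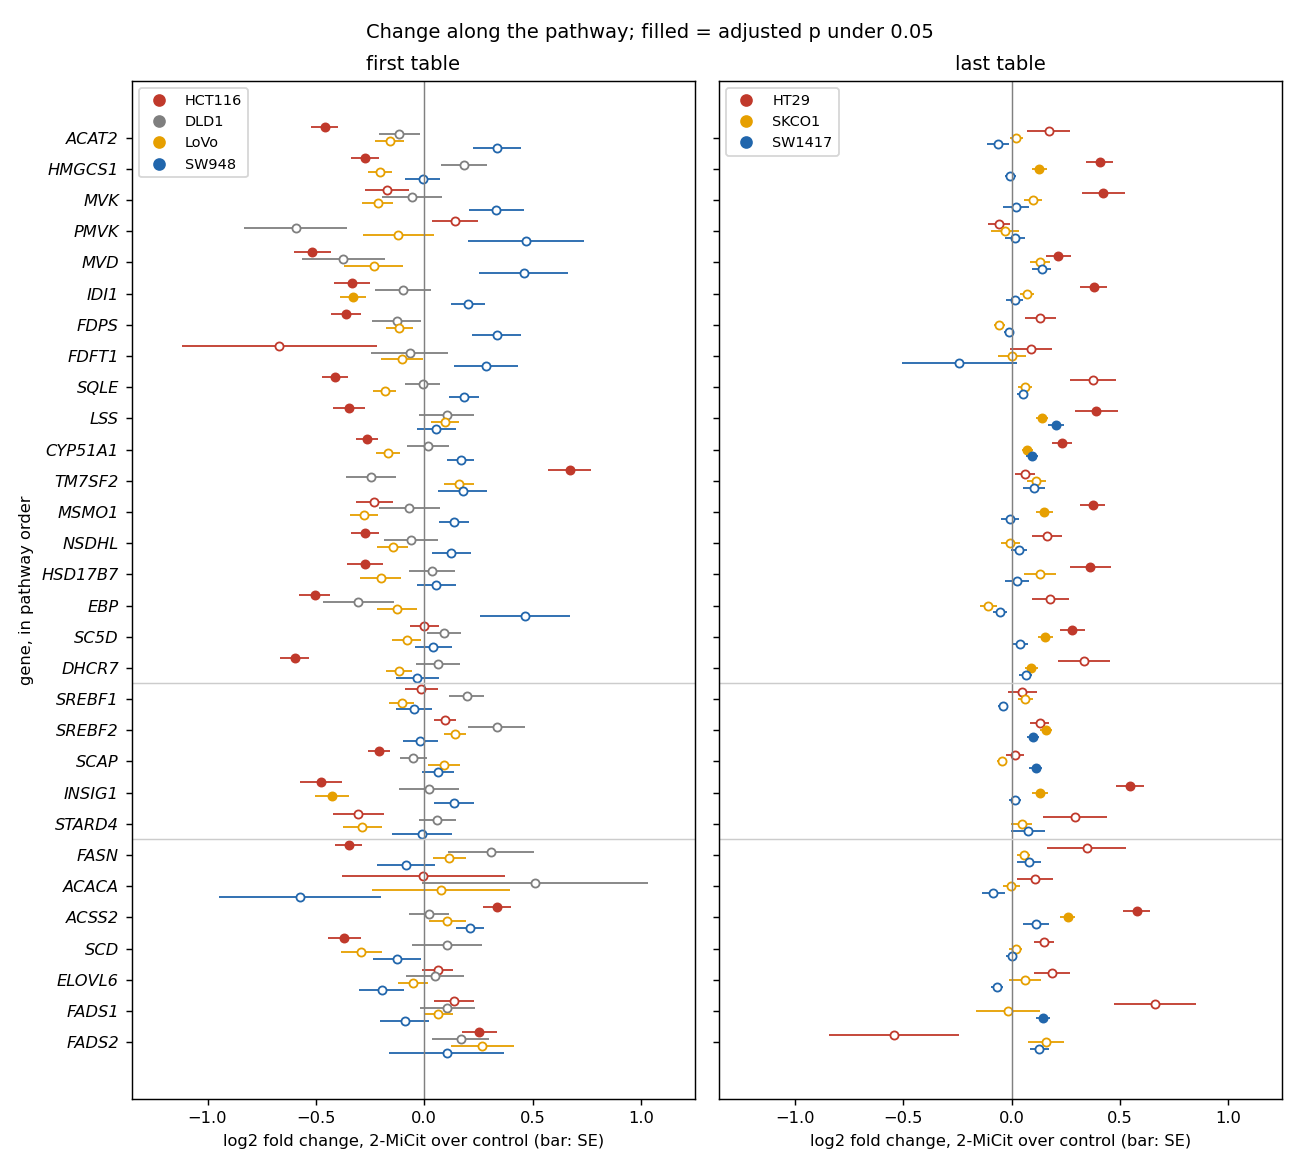
Log2 fold change with 2-MiCit over control (horizontal axis, bar: SE) of each gene in pathway order (vertical axis), with the lines of the first table left and of the last table right, and filled points where the adjusted p is below 0.05. In HCT116 the filled sterol points lie left of 0 except TM7SF2 at 0.67, while in HT29 all filled points lie right of 0.

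Of the control and transport genes, INSIG1 moved as the sterol enzymes did in each of the 4 lines where it was called. In HCT116 it fell from 40.9, 43.2, 34.6 and 32.2 CPM to 27.6, 28.7, 25.8 and 26.3 CPM, a log2 fold change of -0.48 (SE 0.10, adjusted p = 0.0034). In LoVo it fell from 187, 166, 166 and 204 CPM to 146, 121, 134 and 136 CPM, a log2 fold change of -0.43 (SE 0.08, adjusted p = 0.0235). In both lines every 2-MiCit library lay below every control, and the LoVo call was lost without any single 2-MiCit library or control library 3 (adjusted p of 0.0538 to 0.106). In HT29 INSIG1 rose from 43.0, 44.1, 41.4 and 44.2 CPM to 56.1, 69.3, 59.9 and 66.8 CPM, a log2 fold change of 0.55 (SE 0.06, adjusted p = 0.000984). In SKCO1 it rose from 90.1, 94.8, 94.5 and 87.9 CPM to 95.3, 105, 105 and 96.9 CPM, a log2 fold change of 0.13 (SE 0.04, adjusted p = 0.0236), lost without control library 1 or 4 or 2-MiCit library 2 or 3 (adjusted p of 0.053 to 0.0765). In SW1417 INSIG1 was at 115 ± 2.21 CPM in controls and 116 ± 3.58 CPM with 2-MiCit.

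SREBF2 was called higher in SKCO1 and SW1417. In SKCO1 it rose from 111, 116, 115 and 109 CPM to 123, 129.9, 127 and 124 CPM, a log2 fold change of 0.16 (SE 0.03, adjusted p = 0.000948), with no overlap. In SW1417 it moved from 224 ± 5.83 to 240.2 ± 7.75 CPM (adjusted p = 0.0462), a call lost in 7 of the 8 fits that left out a library, every one but 2-MiCit library 4 (adjusted p of 0.0568 to 0.14). In HCT116, where the sterol enzymes were lower, SREBF2 was at 136 ± 5.66 CPM in controls and 145 ± 5.90 CPM with 2-MiCit (log2 fold change 0.10, SE 0.05, adjusted p = 0.16). SREBF1 was called in no line, with log2 fold changes from -0.10 (SE 0.06) in LoVo to 0.20 (SE 0.08) in DLD1. SCAP fell in HCT116 from 93.9, 90.4, 93.3 and 84.6 CPM to 77.9, 77.3, 82.0 and 76.6 CPM (log2 fold change -0.21, SE 0.05, adjusted p = 0.0101). In SW1417 SCAP rose from 119.9, 125, 123 and 114 CPM to 132, 131, 127 and 131 CPM (log2 fold change 0.11, SE 0.03, adjusted p = 0.0331), lost without control library 1, 3 or 4 or 2-MiCit library 1, 2 or 4 (adjusted p of 0.0559 to 0.0928). Neither pair of SCAP groups overlapped. STARD4, a carrier of cholesterol in the cytosol, was called in no line in the main fit of each line, and its log2 fold changes there ran from -0.30 (SE 0.12) in HCT116 to 0.29 (SE 0.15) in HT29.

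The fatty acid enzymes did not go one way in HCT116. There FASN and SCD were lower while ACSS2 and FADS2 were higher, and in each of HT29, SKCO1 and SW1417 a single fatty acid enzyme was called higher. FASN, fatty acid synthase, fell in HCT116 from 864, 883, 863 and 854 CPM to 635, 731, 624 and 734 CPM, a log2 fold change of -0.35 (SE 0.06, adjusted p = 0.00178), with the groups far apart. SCD, which puts the first double bond into saturated fatty acids, fell in HCT116 from 541 ± 41.5 to 419 ± 39.6 CPM (adjusted p = 0.00429). FADS2, a desaturase of polyunsaturated fatty acids, rose in HCT116 from 11.5 ± 0.557 to 13.7 ± 1.06 CPM (adjusted p = 0.0328), a call lost without control library 1, 3 or 4 or 2-MiCit library 2 or 4 (adjusted p of 0.0611 to 0.0969).

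ACSS2, which makes acetyl-CoA from acetate in the cytosol and nucleus, was called higher in 3 lines and lower in none. In HCT116 it rose from 21.5 ± 0.507 to 27.1 ± 1.46 CPM (log2 fold change 0.34, SE 0.06, adjusted p = 0.00248). In HT29 it rose from 15.6, 14.4, 13.9 and 15.8 CPM to 21.7, 21.6, 22.1 and 23.7 CPM, a log2 fold change of 0.58 (SE 0.06, adjusted p = 0.000694). In SKCO1 it rose from 63.4, 62.4, 59.4 and 62.3 CPM to 69.7, 75.2, 76.3 and 74.9 CPM, a log2 fold change of 0.26 (SE 0.03, adjusted p = 0.00015). None of these pairs of groups overlapped, and no call of ACSS2 was lost by leaving out a library. HCT116 thus had ACSS2 higher in the same libraries in which FASN and SCD were lower.

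FADS1, the other desaturase of polyunsaturated fatty acids, rose in SW1417 from 43.3, 45.0, 42.9 and 41.4 CPM to 47.6, 48.1, 47.1 and 47.8 CPM (log2 fold change 0.14, SE 0.03, adjusted p = 0.0129), and those groups did not overlap. In HT29 it was at 2.50, 2.98, 1.46 and 2.40 CPM in controls and at 3.75, 4.15, 3.39 and 3.54 CPM with 2-MiCit (log2 fold change 0.66, SE 0.19, adjusted p = 0.0553). The HT29 level is low, the groups did not overlap, and the test was not passed. FADS1 on the minus strand and FADS2 on the plus strand overlap on chromosome 11 in GENCODE release 29, and no source used here says whether the counting used strand, so their reads may not be fully apart. ACACA, which makes malonyl-CoA, was erratic in the first table, at 11.0, 62.9, 80.5 and 73.6 CPM in DLD1 controls and 125, 84.2, 48.8 and 67.4 CPM with 2-MiCit. In DLD1 its log2 fold change of 0.51 had an SE of 0.52, and neither ACACA nor the elongase ELOVL6 was called in any line.

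The sterol and fatty acid arms were set side by side in each line. In HCT116 12 of 18 sterol enzymes were lower and 1 higher, with a median log2 fold change of -0.30, and 2 of 7 fatty acid enzymes were lower and 2 higher, with a median of 0.06. The medians of the sterol and fatty acid arms were -0.15 and 0.08 in LoVo, -0.06 and 0.11 in DLD1, and 0.18 and -0.09 in SW948. In the last table the same medians were 0.26 and 0.19 (HT29), 0.08 and 0.06 (SKCO1), and 0.02 and 0.08 (SW1417). Over all genes tested the median was 0.03 in HCT116 and between -0.0020 and 0.0054 in the other lines. Over every alternative tried, the sterol median stayed between -0.34 and -0.28 in HCT116, between -0.18 and -0.10 in LoVo, between 0.15 and 0.20 in SW948 and between 0.22 and 0.28 in HT29. The fatty acid median in HCT116 ran from -0.06 to 0.15, and the sterol median in DLD1 from -0.16 to 0.01, so neither kept one direction. The other medians of both arms kept their sign and moved by more than 1.5 times in places. The LoVo sterol median was -0.10 with the length trend removed, and the LoVo fatty acid median ran from 0.01 without control library 4 to 0.13 without control library 1. The SW948 fatty acid median ran from -0.17 without 2-MiCit library 1 to -0.03 with the length trend removed. The fatty acid median was 0.0076 in DLD1 without control library 1, 0.0059 in SKCO1 without control library 4 and 0.04 in SW1417 without 2-MiCit library 1. The SW1417 sterol median ran from 0.0094 without control library 1 to 0.04 without control library 2 or 3. The difference between the arms was described and not tested.

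The mean of log2(CPM + 1) over an arm, taken per library against the line's control mean, shows which libraries carry this. In HCT116 the sterol mean was 0.10, 0.03, -0.06 and -0.07 in controls and -0.25, -0.21, -0.32 and -0.31 with 2-MiCit, while the fatty acid mean was -0.16, 0.06, -0.01 and 0.12 in controls and -0.10, 0.09, -0.14 and 0.17 with 2-MiCit. The sterol groups of HCT116 were apart and the fatty acid groups overlapped. HCT116 counts also leaned with transcript length, in log2 units for each doubling of length. The slopes were -0.114, -0.027, -0.052 and 0.036 in controls and -0.008, 0.078, -0.036 and 0.123 with 2-MiCit. Within each group the fatty acid means stood in the same order as these slopes. With the length trend removed the HCT116 fatty acid median was -0.06. The part of length in the overlap was not tested. In HT29 the sterol mean was -0.01, 0.10, -0.04 and -0.05 in controls and 0.19, 0.40, 0.17 and 0.20 with 2-MiCit, and the fatty acid mean was 0.01, 0.07, -0.09 and 0.01 in controls and 0.15, 0.41, 0.16 and 0.23 with 2-MiCit. Both HT29 arms were apart, and 2-MiCit library 2 was the highest in both. Sterol groups were also apart in LoVo (lower), SW948 (higher) and SKCO1 (higher), and they overlapped in DLD1 and SW1417. Fatty acid groups overlapped in every line except HT29.

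**Figure D4:**
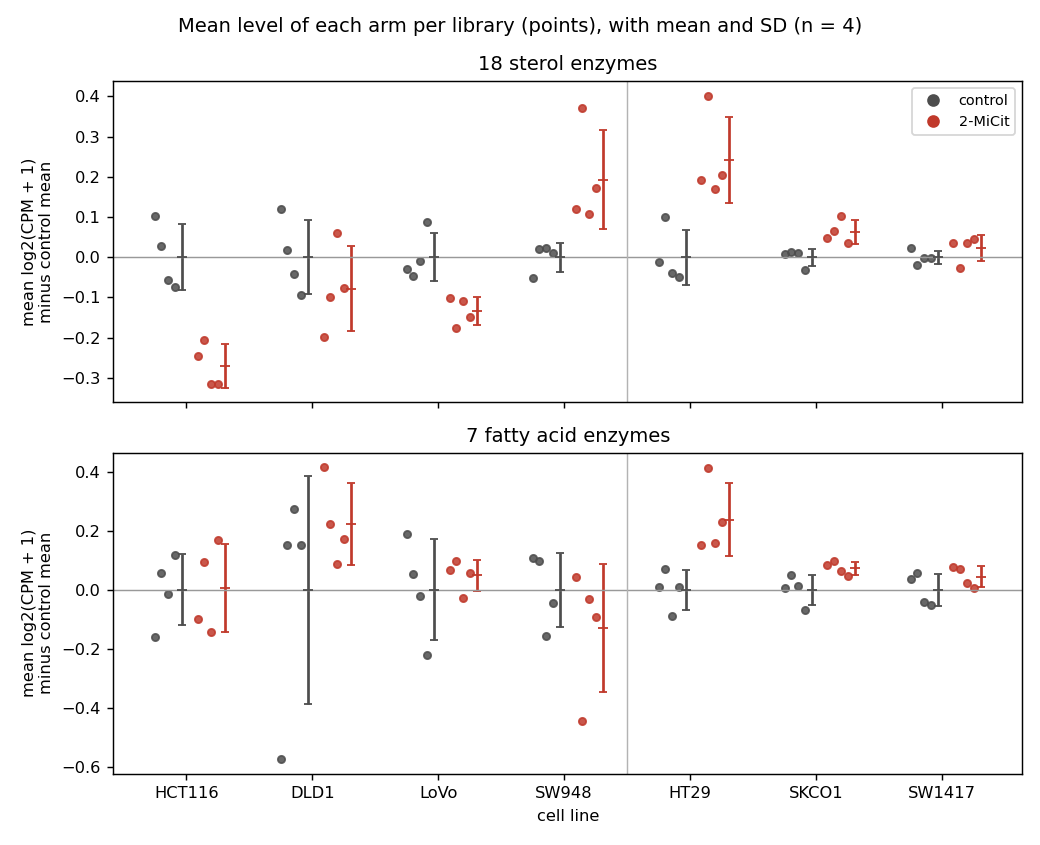
Mean log2(CPM + 1) of the 18 sterol enzymes (top) and the 7 fatty acid enzymes (bottom) in each library, minus the control mean of the line, with the mean and SD of the 4 libraries beside the points. In HCT116 the red sterol points lie between -0.32 and -0.21, below all grey points, while the red fatty acid points spread among the grey ones.

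No member passed the test in DLD1 or SW948. At an unadjusted p below 0.05, 3 of 30 members were past it in DLD1 (17.7% of all genes were, in either direction) and 7 of 30 in SW948, all 7 higher. In SW948 6.66% of all genes were past it in either direction, 888 of 13334, of which 479 were higher. DESeq2 called 0 members in both lines. Over all genes it called 347 higher and 164 lower in DLD1, against 20 and 0 in the main fit, and 0 in SW948. In SW948 the sterol mean was -0.05, 0.02, 0.02 and 0.01 in controls and 0.12, 0.37, 0.11 and 0.17 with 2-MiCit. There 16 of 18 sterol enzymes had a log2 fold change above 0, where 50.4% of all genes did. No gene at all was called in SW948, where the lowest adjusted p over all genes was 0.522. SW948 2-MiCit library 2 stood apart, with the highest sterol mean (0.37) and the lowest fatty acid mean (-0.44). Its counts also leaned to short transcripts, falling by 0.227 log2 units for each doubling of length relative to the line's mean. When that library was left out, the SW948 sterol median was 0.15 and 18 of 18 sterol enzymes were above 0. The share of all genes above 0 was not taken for that fit. In DLD1, control library 1 had the lowest fatty acid mean of the line (-0.57) and the steepest slope with length (-0.280), and without it the sterol median was -0.02 and the fatty acid median 0.01. A fit that removed the trend with transcript length called 0 members in both lines and gave a sterol median of 0.01 in DLD1 and 0.17 in SW948. Over all genes that fit called 120 higher and 12 lower in DLD1 and 0 in SW948.

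Whether the response differed between lines was tested within each table, since lines of different tables were not set against each other. In HCT116, DLD1, LoVo and SW948 the response of 13 of 30 members differed (18% of 15800 genes did), with 11 of them sterol enzymes, 2 control genes (SCAP and INSIG1) and no fatty acid enzyme. In HT29, SKCO1 and SW1417 it differed for 5 of 30 (5.49% of 16090 genes did), namely HMGCS1, IDI1, MSMO1, INSIG1 and ACSS2, and the 5 became 14 without HT29 control library 2. With the replicate block the 13 became 9, and the calls lost were EBP (adjusted p = 0.0696), MVD (0.0862), MVK (0.0623) and SCAP (0.112). In the first table the smallest adjusted p was that of TM7SF2 (0.000164), followed by SQLE (0.000263) and ACAT2 (0.00041). In the last table it was that of INSIG1 (0.000142). Of the calls in the first table, MVK (adjusted p = 0.0494) was lost in 21 and SCAP (adjusted p = 0.0375) in 17 of the 32 fits that left out a library, with adjusted p of 0.0503 to 0.146 and of 0.0509 to 0.0793 when lost. HMGCS1 and MVD were each lost in 4 of the 32, with adjusted p of 0.0531 to 0.0634 without HCT116 control 2 or 4 or DLD1 2-MiCit 2 or 3 for HMGCS1, and of 0.054 to 0.0978 without SW948 control 1, 2 or 4 or 2-MiCit 2 for MVD.

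Pairs of lines within a table were compared in the same fits, 9 pairs in all, with p adjusted over all genes within each pair. SW948 against HCT116 differed for 14 members (18.7% of all genes), 13 of them with the larger log2 fold change in SW948. Among these, ACAT2 differed by 0.77 (SE 0.12, adjusted p = 5e-05), EBP by 0.95 (SE 0.23, adjusted p = 0.00399) and INSIG1 by 0.59 (SE 0.15, adjusted p = 0.00757), and TM7SF2 differed by -0.51 (SE 0.13, adjusted p = 0.0075). DLD1 against HCT116 differed for 7 members (8.34% of all genes), among them DHCR7 by 0.64 (SE 0.13, adjusted p = 0.00165) and TM7SF2 by -0.94 (SE 0.13, adjusted p = 3.3e-05). They included 2 fatty acid enzymes, FASN by 0.63 (SE 0.20, adjusted p = 0.047) and ACSS2 by -0.33 (SE 0.10, adjusted p = 0.0452). LoVo against HCT116 differed for 3 members (6.04% of all genes), DHCR7 by 0.47 (SE 0.13), SCAP by 0.29 (SE 0.08) and TM7SF2 by -0.52 (SE 0.13). These 3 comparisons share the HCT116 libraries. SW948 against DLD1 differed for 6 members (13.2% of all genes), every one with the larger log2 fold change in SW948. LoVo against DLD1 differed for 0 members (0.506% of all genes), and SW948 against LoVo for 0 members (0.038% of all genes). At an unadjusted p below 0.05 of the same edgeR test, 5 and 10 members were past it in these 2 pairs. The share of all genes at that unadjusted threshold was not taken for any pair, so these counts cannot be set against all genes.

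SW948 2-MiCit library 2 and DLD1 control library 1, whose counts leaned to short transcripts, enter these comparisons. With both left out, SW948 against DLD1 differed for 0 members by edgeR's test, so that all 6 calls were lost (0.806% of all genes were called, and the lowest adjusted p of a member was 0.166). At an unadjusted p below 0.05, 6 members were past it, and the share of all genes past it was not taken. PMVK, for example, differed by 1.06 between SW948 and DLD1 with all libraries and by 0.38 (SE 0.20) without those 2. DLD1 against HCT116 then differed for 11 members, which include the former 7 (11.5% of all genes). SW948 against HCT116 differed for 14, of which 13 were among the former 14 (20.2% of all genes). The response differed over the lines of the first table for 14 members, 12 of them among the former 13 (18.4% of all genes).

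SKCO1 against HT29 differed for 5 members (4.14% of all genes) and SW1417 against HT29 for 6 (3.44% of all genes), every one with the larger log2 fold change in HT29. INSIG1 differed by -0.42 (SE 0.07, adjusted p = 0.00138) in SKCO1 and by -0.52 (SE 0.07, adjusted p = 0.000102) in SW1417, each against HT29. HMGCS1 differed by -0.28 (SE 0.07) and -0.40 (SE 0.07) and ACSS2 by -0.32 (SE 0.08) and -0.46 (SE 0.08) in the same order. SW1417 against SKCO1 differed for 0 members (1.03% of all genes). At an unadjusted p below 0.05, 2 members were past it, and the share of all genes past it was not taken.

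Counted by gene, 9 members were called lower in at least 1 line and higher in at least 1 other, namely HMGCS1, MVD, IDI1, LSS, CYP51A1, HSD17B7, DHCR7, SCAP and INSIG1, where 2.62% of the 11319 genes tested in every line were so called. They comprise 7 sterol enzymes, 2 control genes and no fatty acid enzyme. Every lower call of these 9 was in HCT116 or LoVo of the first table. Every higher call was in HT29, SKCO1 or SW1417 of the last table. No member was called in opposite directions within a table, so direction and table go together in these calls. The part of the table in these directions was not tested. Of the 16 members lower in HCT116, 7 were higher in HT29 (43.75%), which is 63.6% of the 11 higher in HT29. Over the genes tested in every line, 1.06% of the 2349 lower in HCT116 were higher in HT29, which is 6% of the 417 higher in HT29. The members were listed with earlier results of these data known. HCT116 and HT29 stand in different tables and were not tested against each other.

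Control levels of the fatty acid enzymes differed widely between lines of a table, scaled over the whole table. FADS2 was at 107 ± 6.36 CPM in SW1417, 5.40 ± 0.22 CPM in SKCO1 and 0.45 ± 0.10 CPM in HT29, and these 3 levels do not come near each other. FADS1 was at 45.0 ± 1.74 CPM in SW1417, 2.32 ± 0.63 CPM in HT29 and 1.91 ± 0.28 CPM in SKCO1, where the HT29 and SKCO1 levels lie within their spread. In the first table FADS1 was at 94.6 ± 9.10 CPM in LoVo, 52.9 ± 4.58 CPM in HCT116, 17.2 ± 2.05 CPM in SW948 and 10.6 ± 1.70 CPM in DLD1. Per kilobase of the longest transcript, SCD was the most abundant of the 30 members in SW1417 controls at 225 CPM per kb, with FDPS next at 143 CPM per kb. In HCT116 controls FASN and SCD stood at 97.4 and 97.2 CPM per kb, above FDPS at 79.7 CPM per kb.

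**Figure D5:**
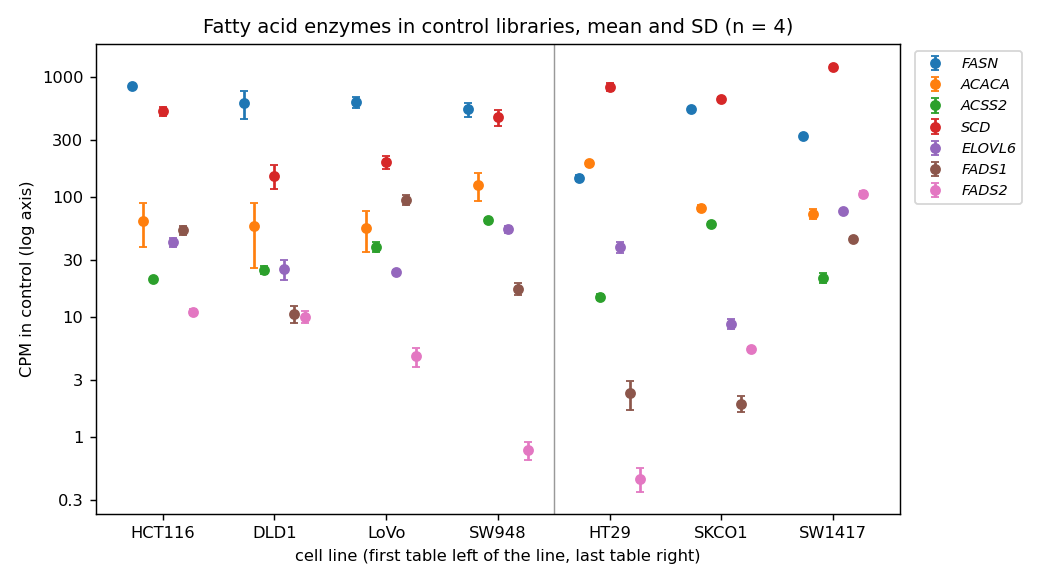
Control level in CPM (log axis) of the 7 fatty acid enzymes in each line, as mean and SD of 4 libraries, with the first table left of the line and the last table right of it. FADS2 is at 107 CPM in SW1417 and below 1 CPM in SW948 and HT29, and ACACA has wide bars in the first table.

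Other genes of sterol and fatty acid supply were called in both directions, and nothing particular to them is read from the counts, which stand against the shares of all genes called in each line given above. Of a list of 29 genes that holds transporters, acyl-CoA synthetases, elongases and further SREBP regulators, 28 were tested in HCT116, with 5 higher and 4 lower and a median log2 fold change of 0.08. In HT29 2 of 28 were higher and none lower, in SKCO1 2 were higher and 3 lower, and in SW1417 2 were higher and 1 lower. In DLD1, LoVo and SW948 none of 25, 26 and 27 were called, and 2, 2 and 1 had an unadjusted p below 0.05. Over all genes 17.7%, 21.3% and 6.66% were below it in the same lines. The median in HT29 was 0.06 where that of the sterol enzymes was 0.26, and no gene of the list was called in 3 lines.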

How the data were processed

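The mRNA libraries of 7 cell lines (Illumina Stranded mRNA Prep, per the labels' protocols) were read from 2 tables of counts per gene as the authors deposited them, with 4 libraries in each group. The submitters' processing notes name bcl2fastq 2.20.0, Trimmomatic 0.39, Salmon 1.5.0, DESeq2 and the build GRCh38.p13, with no settings. The deposited normalized counts of the last table (a signal made by the authors by dividing each count by a factor that differs by gene and library) served only as an alternative scaling.

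Symbols, positions and transcript lengths came from GENCODE release 29. Identifiers without a symbol (1317) held 3.08 to 3.91% of the counts. Each line was tested alone with edgeR 4.0.16 (R 4.3.3): filterByExpr, TMM, robust quasi-likelihood F test, Benjamini-Hochberg over all genes tested, threshold 0.05. The SE is the absolute log2 fold change divided by the square root of F. The difference between lines was the treatment-by-line term of 1 fit per table. CPM use TMM library sizes, except marker sums, which use raw totals. The code was tested on simulated data.

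Only in HCT116 did all 4 same-numbered pairs correlate above 0.1 (0.408, 0.119, 0.118 and 0.332, deviations from group means). The numbers were therefore read there as a possible pairing. HCT116 values and calls come from the unpaired fit, as in the other lines, unless the replicate block is named. Members and lists were chosen with earlier results of these data known. Named genes are all 30 members; values per library are given for those called in at least 4 lines or in opposite directions, and for the called member of each role with the smallest p in a line; others printed per library (TM7SF2, FDFT1, ACACA, FADS1 in HT29) were chosen after their values were seen. Alternatives were DESeq2 1.42.0, its size factors, other filters, 1 fit per table, the replicate block, removal of the length trend and leaving out each library.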

Additional observations from a re-analysis of the deposited data

Results flagged for a closer look

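In some groups of 4 libraries 1 library lay far from the rest, by Dixon's test of the gap against the group's range. This was tested in 180 groups, and chance gives about 1 in 20 such groups. Among arm means, it held for the fatty acid mean of DLD1 control library 1 (-0.574) and the sterol means of 1 SW948 control (-0.0529), 1 HT29 2-MiCit (0.402), 1 SKCO1 control (-0.0323) and 1 SW1417 2-MiCit library (-0.0258). Among single genes, the highest MVD library stood out in DLD1 controls (63.1 CPM) and in the 2-MiCit groups of DLD1 (39.8 CPM), SW948 (81.7 CPM) and SW1417 (21.0 CPM). HSD17B7 in SW948 controls (26.6 CPM), HMGCS1 (119 CPM) and CYP51A1 (144 CPM) in HT29 with 2-MiCit and LSS in HT29 controls (43.2 CPM) were the others.

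The response to 2-MiCit differed between HCT116, DLD1, LoVo and SW948 by the edgeR test of the treatment-by-line term for 13 members. Their adjusted p were 0.00041 for ACAT2, 0.0299 for HMGCS1, 0.0494 for MVK, 0.0287 for MVD, 0.016 for IDI1, 0.00513 for FDPS, 0.000263 for SQLE, 0.00985 for CYP51A1, 0.000164 for TM7SF2, 0.0168 for EBP, 0.00314 for DHCR7, 0.0375 for SCAP and 0.00945 for INSIG1. Between HT29, SKCO1 and SW1417 the edgeR adjusted p were 0.00176 for HMGCS1, 0.00441 for IDI1, 0.00493 for MSMO1, 0.000142 for INSIG1 and 0.00253 for ACSS2.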

How the results depend on the processing

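No direction of a called value reversed under any alternative run. Of 3844 values of single genes under an alternative, 3595 kept their side of the threshold, 178 lost a call and 71 gained one. The 3595 include values called neither in the main fit nor under the alternative. Only values called in the main fit could be lost, so 178 of 3844 is not a rate of loss. Counts of members called that moved by more than 1.5 times were as follows, and the cause was not tested. With DESeq2, LoVo had 7 and the difference between HT29, SKCO1 and SW1417 had 12. Over all genes LoVo then had 483 higher and 490 lower, against 218 and 96 in the main fit. The share of all genes was not taken for the last table's difference under any alternative. With the length trend removed LoVo had 6, and over all genes it had 376 higher and 377 lower. With 1 fit over all lines of a table, DLD1 had 1, LoVo 1, SKCO1 2 and SW1417 0. Over all genes DLD1 then had 733 higher and 619 lower, against 20 and 0 in its main fit. LoVo had 120 and 82 against 218 and 96. SKCO1 had 626 and 1010 against 1187 and 1589, and SW1417 had 211 and 227 against 414 and 570. Without a filter SW1417 had 3, and over all genes 372 higher and 502 lower. With the stricter filter the difference in the last table had 8. The authors' factors per gene, an alternative chosen after seeing the data, gave 7 in HT29, 1 in SKCO1 and 0 in SW1417. Their counts over all genes are given in the Results. With the replicate block HT29 had 22, and there were 17 for the difference in the last table, where the samples share only a number. Over all genes HT29 then had 1150 higher and 1034 lower, against 646 and 419 in the main fit. The block took the first table's difference from 13 to 9, and moved no other count by more than 1.5 times. In no line did every sample correlate best with its own number. Without SW948 2-MiCit library 2 and DLD1 control library 1, an alternative also chosen after seeing the data, DLD1 against HCT116 had 11 and SW948 against DLD1 had 0. Leaving out each library gave 0 to 4 in LoVo, 5 to 15 in HT29, 4 to 9 in SKCO1, 2 to 4 in SW1417 and 5 to 14 for the last table's difference. The 4 libraries per group limit the precision of every call.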
